A study of Mus musculus with 11 samples.

Results

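The 10 genes below belong to the oligodendrocyte lineage and were followed through single nuclei of the mouse brain, 10 of the 25938 genes in the deposited count matrix, chosen by symbol. The precursor is marked by Pdgfra, Cspg4, Vcan, Tnr and Lhfpl3. Enpp6 and Bcas1 mark the newly formed oligodendrocyte, Sox10 and Olig2 encode transcription factors of the whole lineage, and St18 encodes a transcription factor found in later stages. All 10 were in the matrix, and the question was where precursors and newly formed oligodendrocytes lie, since the deposited annotation has no name for either, and how much Malat1 RNA nuclei with these transcripts held in each dosing group.

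Oligodendrocyte precursors are dividing glia that persist in the adult brain and carry the receptor for platelet-derived growth factor on their surface. On differentiation they lose the receptor and the proteoglycans of the precursor, pass through a short premyelinating stage in which Enpp6 and Bcas1 are high, and then raise the genes of the myelin sheath. Malat1 is a long non-coding RNA that stays in the nucleus and is abundant in most cells, and an antisense oligonucleotide (ASO) directs its cleavage by RNase H.

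All mice of the 4 groups carried, per the labels, 2 copies of a knocked-in human gene for the transferrin receptor (TfR), through which the carrier molecules are meant to reach the brain. The group OTV:Malat1 (n = 3 libraries) received a Malat1 ASO joined to a TfR-binding carrier at 60 mg/kg. In nonTV:Malat1 (n = 3), also at 60 mg/kg, the ASO was joined to a carrier that does not bind the TfR. The third preparation, Malat1 ASO (n = 2), was the unconjugated oligonucleotide, given at 2.5 mg/kg. The control, ATV:BACE1 (n = 3), was a TfR binder that held no ASO, with a labelled dose of 57 mg/kg. Its label also names BACE1, which those of the other groups do not, so contrasts with the control may differ in more than the ASO. Dosing was intravenous, once a week for 4 doses, and the brain was collected 72 h later. Replicates 1 and 5 came from mice of 2.33 months and replicate 4 from mice of 2.57 months. Replicate 1 was female and the other replicates male, and each replicate number had a deposited batch of its own. Sex and age each had 1 value per replicate number, so neither can be told apart from the batch. The region is posterior brain in the labels and cortex in the deposited metadata, which also give C57BL/6J as the strain and do not mention the knock-in. There were 110304 nuclei in the 11 libraries, 7546 to 13840 in each, and a library held 33235994 to 43972886 UMIs (unique molecular identifiers, 1 for each captured RNA molecule), with a median of 2205 to 3666 in a nucleus. Of 108788 barcode sequences 1495 occurred in more than 1 library, and of the 2308 barcode sequences of the gated nuclei described below, 2 were gated in more than 1. Nothing in the labels says whether a library pooled animals, so p-values measure the spread between libraries.

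Promoters are shown for 2 precursor genes, Tnr, which encodes the extracellular matrix glycoprotein tenascin-R, and Lhfpl3, which encodes a small tetraspan membrane protein, since these were the genes of the set with a transcription factor motif in the window searched. RefSeq promoters (GRCm38.p6, 250 bases before the start) were found for 7 of the 10 genes. A SOX core (ACAAAG, or CTTTGT on the other strand) lay in 1 of the 7, that of Tnr, and in 16.5% of all 32851 promoters of this length. The E-box CAGCTG, which reads the same on both strands, lay in 1 of the 7, that of Lhfpl3, and in 13.0% of all promoters. The motifs share no bases, and the capitals below mark them, 5′ to 3′ on the plus strand of chr1:159523519-159523768 for Tnr and of chr5:22745804-22746053 for Lhfpl3. A match is a description of the letters.
Tnr: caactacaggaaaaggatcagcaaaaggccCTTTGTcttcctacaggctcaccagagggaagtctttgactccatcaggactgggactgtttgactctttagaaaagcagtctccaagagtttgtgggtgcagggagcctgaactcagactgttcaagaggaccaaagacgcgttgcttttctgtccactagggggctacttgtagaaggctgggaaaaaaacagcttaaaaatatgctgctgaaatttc
Lhfpl3: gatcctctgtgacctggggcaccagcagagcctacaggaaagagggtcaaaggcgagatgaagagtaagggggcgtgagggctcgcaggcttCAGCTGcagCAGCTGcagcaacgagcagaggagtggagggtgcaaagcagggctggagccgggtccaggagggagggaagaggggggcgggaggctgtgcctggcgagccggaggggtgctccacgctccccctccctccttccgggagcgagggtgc

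The genes lie apart from each other in the genome, with spans from GENCODE M21 on GRCm38 as follows: Pdgfra at chr5:75152292-75198215 (plus strand), Cspg4 at chr9:56865033-56899870 (plus strand), Vcan at chr13:89655312-89742509 (minus strand), Tnr at chr1:159523769-159931729 (plus strand), Lhfpl3 at chr5:22746059-23275597 (plus strand), Enpp6 at chr8:46986887-47096762 (plus strand), Bcas1 at chr2:170346991-170427845 (minus strand), Sox10 at chr15:79154908-79165240 (minus strand), Olig2 at chr16:91225457-91228677 (plus strand) and St18 at chr1:6487231-6860940 (plus strand). Malat1 lies at chr19:5795690-5802672 (minus strand).

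Over the 10 deposited clusters, the precursor genes had their highest level in cluster 5 and the later genes in cluster 3. Pdgfra, the receptor for platelet-derived growth factor, stood at 136 ± 34.3 CPM (the gene's UMIs for each 1000000 UMIs of those nuclei; mean ± SD, n = 11 libraries) in cluster 5 and at 71.4 ± 15.6 in cluster 6, the next highest. Vcan, the matrix proteoglycan versican, was at 177 ± 65.7 CPM in cluster 5 and at 64.1 ± 23.5 in cluster 7. Cspg4, the NG2 proteoglycan, was the exception, with 65.3 ± 15.6 CPM in cluster 6 and 58.2 ± 19.0 in cluster 5, values that overlap within their SD. Cspg4 is also a gene of pericytes, and by deposited class it stood at 167 ± 35.1 CPM in pericytes and 213 ± 117 in vascular smooth muscle. Pdgfra in turn reached 212 ± 48.7 CPM in leptomeningeal cells. Neither gene alone therefore picks out 1 cell type in these data.

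**Figure D1:**
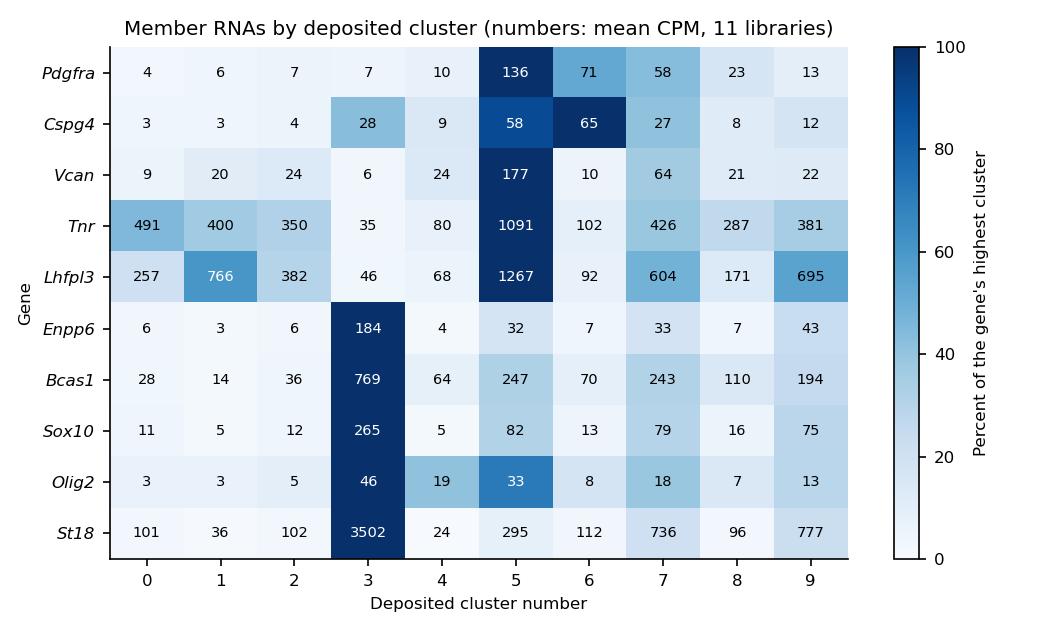
Mean CPM over 11 libraries of the 10 genes (rows) in the 10 deposited clusters (columns), with each cell's number giving the CPM and its shade the percent of that gene's highest cluster. Pdgfra, Vcan, Tnr and Lhfpl3 are highest in cluster 5, Cspg4 in cluster 6, and Enpp6, Bcas1, Sox10, Olig2 and St18 in cluster 3.

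In cluster 3, Enpp6, a choline phosphodiesterase, stood at 184 ± 17.4 CPM, against 42.8 ± 13.6 in cluster 9, the next highest. Bcas1, a protein of premyelinating and myelinating cells, was at 769 ± 74.4 CPM in cluster 3 and 247 ± 63.3 in cluster 5. St18 was at 3502 ± 419.8 CPM in cluster 3 and 777 ± 85.8 in cluster 9. Sox10 was at 265 ± 60.4 CPM in cluster 3 and 82.3 ± 23.1 in cluster 5, and Olig2 at 45.8 ± 11.3 and 32.6 ± 9.38. Outside oligodendrocytes, St18 reached 573 ± 199.7 CPM in the microglia class. Across the 10 clusters, and over 13721 genes, the profile most like that of Pdgfra was C430049B03Rik (Pearson r 0.971 of log2(CPM + 1)), followed by Calcrl (0.897), Sh3bp4 (0.872), Sema3d (0.864) and Csnk2a2 (0.861). The first 4 of these were higher in another cluster (26.9, 89.9, 66.1 and 85.7 CPM) than in cluster 5 (26.3, 43.0, 45.1 and 61.6). Csnk2a2 was highest in cluster 5 (105 against 87.7 CPM). The profiles most like that of Enpp6 were Gm10863 (0.993), Plxnb3 (0.992), Gm12145 (0.991), Gjc3 (0.990) and Myrf (0.989). These coefficients describe 10 clusters of pooled libraries and have no p-value.

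Precursor nuclei were located by the RNAs themselves. A nucleus counted as a precursor nucleus when at least 3 of the 5 precursor genes had a UMI, Pdgfra or Cspg4 among them, and the 5 together made up at least 0.5% of its UMIs other than Malat1. The gate took 1957 nuclei, from 113 to 261 in a library, of which 1671 had a UMI of Pdgfra and 1000 of Cspg4. Of these nuclei 1709 (87.3%) lay in cluster 5, 79 in cluster 7 and 68 in cluster 1. They made up 28.5% of the 5993 nuclei of cluster 5. The deposited annotation called 1396 of them (71.3%) neurons, 401 (20.5%) oligodendrocytes and 118 (6.03%) astrocytes. Their median prediction score was 0.738, against 1 for neurons outside the gates. Their median depth was 1818 UMIs, between 3974 for those neurons and 926 for the oligodendrocyte class outside the gates. Doublet calls covered 8.48% of precursor nuclei, 10.4% of all nuclei and 53.3% of the other nuclei of cluster 5. Near the edges of the gate, 395 precursor nuclei had exactly 3 of the genes and 161 held 0.5 to 0.6% of UMIs on them. Just outside it, 202 nuclei held 0.4 to 0.5%, 37 had 2 of the genes, and 393 had 3 or more without Pdgfra or Cspg4, of which 321 lay in cluster 5.

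Of 20 genes of precursors and committed precursors that the gate did not use, 15 were higher in precursor nuclei than in the Enpp6-gated nuclei described next or in other oligodendrocyte nuclei, and 5 were higher in the Enpp6-gated nuclei. Sox10 or Olig2 was seen in 1012 of the 1957 nuclei, with Sox10 at 246 ± 57.9 CPM and Olig2 at 108 ± 21.6 (mean ± SD, n = 11). Sox10 was no higher there than in other oligodendrocyte nuclei (268 ± 60.6). Among the 15 were Ptprz1, a receptor phosphatase (1971 CPM, against 89.1 in other oligodendrocyte nuclei), Sox6 (1409 against 76.2), Megf11 (727 against 21.6) and Cacng4 (621 against 18.7), all pooled over libraries. The 6 division genes listed were all highest in precursor nuclei but summed to 41.9 CPM there, with Top2a at 14.9 CPM. Markers of other cells were also found. The 6 neuron markers summed to 1205 CPM (4474 in neurons outside the gates) and 5 mature oligodendrocyte markers to 984 CPM (9899 in other oligodendrocyte nuclei). The 5 astrocyte markers summed to 930.3 CPM, against 434 in those neurons and 434 in other oligodendrocyte nuclei. The 4 choroid plexus and ependyma markers summed to 768 CPM, against 358 in those neurons, 1010 in Enpp6-gated and 1521 in other oligodendrocyte nuclei. Each of these lists had a median of 1 UMI per precursor nucleus. The 5 leptomeningeal markers summed to 14.4 CPM and the 6 pericyte and smooth muscle markers to 34.0 CPM, with medians of 0 UMIs per nucleus.

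To look for newly formed oligodendrocytes, nuclei were gated that had at least 2 UMIs of Enpp6 (at least 0.1% of UMIs other than Malat1) and 1 of Bcas1 outside the precursor gate, called Enpp6-gated nuclei here. There were 353, from 17 to 52 in a library, and 204 of them had exactly 2 UMIs of Enpp6. Just outside the gate, 1407 nuclei had 1 UMI of Enpp6 with Bcas1, and 5 nuclei met both gates and were kept as precursors. The annotation named 345 of the 353 (97.7%) oligodendrocytes. By cluster they fell into 246 (69.7%) in cluster 3, with the mature cells, and 94 (26.6%) in cluster 5, with the precursors. Called doublets made up 1.13% of them and their median depth was 1595 UMIs. The 5 mature oligodendrocyte markers summed to 9443 CPM in them and 9899 CPM in other oligodendrocyte nuclei. Of 14 differentiation genes 13 were higher in the 94 nuclei of cluster 5 than in the 246 of cluster 3, as given below, so the set as a whole is not called newly formed oligodendrocytes.

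The gates chose the genes that define them, so the levels of those genes are descriptions. Precursor nuclei held Pdgfra at 771 ± 99.7 CPM, Cspg4 at 308 ± 37.5, Vcan at 755 ± 125, Tnr at 3204 ± 287 and Lhfpl3 at 5086 ± 518 (mean ± SD, n = 11). Enpp6-gated nuclei held Enpp6 at 1647 ± 169.9 and Bcas1 at 2411 ± 525, against 149.6 ± 10.8 and 814 ± 74.9 in other oligodendrocyte nuclei. Of the genes no gate used, St18 was at 254 ± 108 CPM in precursor nuclei, 3404 ± 477 in Enpp6-gated and 3315 ± 433 in other oligodendrocyte nuclei, the last 2 within 1 SD of each other. Sox10 was at 246 ± 57.9, 406 ± 118 and 268 ± 60.6 CPM in the same order. Enpp6-gated and other oligodendrocyte nuclei both leave out precursor nuclei, whose gate uses Tnr, so their Tnr levels are partly set by it. Tnr, for which the Enpp6 gate set no level of its own, was at 3303 ± 1184 CPM in Enpp6-gated nuclei, against 285 ± 79.3 in other oligodendrocyte nuclei. The mean of Enpp6-gated nuclei joins unlike nuclei: Tnr had a UMI in 31.2% of them, and stood at 8315 ± 1216 CPM (n = 5 libraries with at least 10 such nuclei) in those of cluster 5 and 35.6 ± 33.5 (n = 10, by the same minimum) in those of cluster 3.

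**Figure D2:**
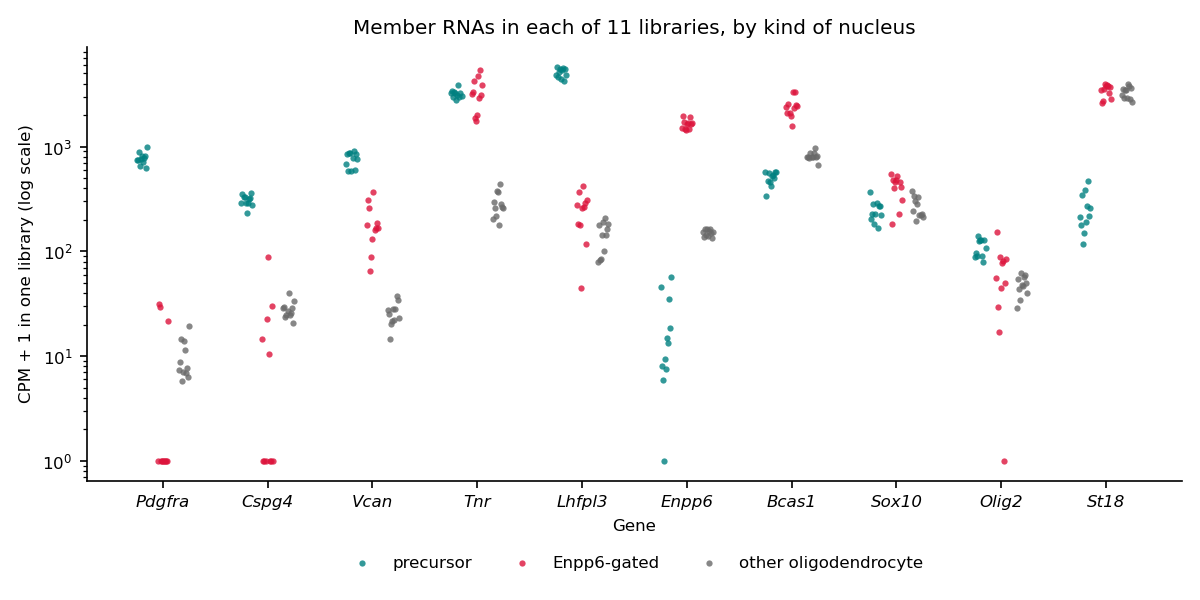
Each point is 1 of 11 libraries, with CPM + 1 on a log axis and the 10 genes along the horizontal axis, for precursor, Enpp6-gated and other oligodendrocyte nuclei. St18 overlaps between Enpp6-gated and other oligodendrocyte nuclei and lies lower in precursor nuclei, while Tnr in Enpp6-gated nuclei spreads from 1754 to 5379 CPM, on both sides of the precursor mean of 3204.

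The Enpp6-gated nuclei of the 2 clusters differed in the rest of the lineage genes. Pooled over libraries, those of cluster 5 held Tnr at 8276 CPM and Vcan at 507, against 33.1 and 5.52 in cluster 3. Enpp6, which the gate fixed, stood at 1659.7 and 1634 CPM. Bcas1 was at 4632 and 1157 CPM, and St18 at 3235 and 3904. Of 14 differentiation genes measured, 13 were higher in the cluster 5 nuclei, among them Tcf7l2, a transcription factor of differentiation (2452 against 74.5 CPM), the kinase Fyn (4018 against 77.3), Itpr2 (1397 against 2.76) and Nfasc (4957 against 516). Of 20 precursor and committed precursor genes 18 were higher there, among them Bmp4 (271 against 5.52) and Gpr17 (138 against 2.76). All 15 mature myelin genes were higher in the cluster 3 nuclei, among them Mog (1124 against 231 CPM), Mobp (1217 against 138) and Aspa (1107 against 97.9). Clusters were formed from the same counts, so these differences carry no test.

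Shares of nuclei with a UMI depend on depth, so each nucleus was also thinned to 1000 UMIs. Pdgfra was then seen in 57.2% of precursor nuclei (median depth 1818 UMIs before thinning) and in 0.571% of vascular endothelial nuclei (median 960.5), a type that should lack it. Without thinning these were 85.4% and 0.814%. The precursor gate asks for a UMI of Pdgfra or Cspg4, so the Pdgfra shares of precursor nuclei are partly set by the gate. Enpp6 was seen in 13.9% of thinned oligodendrocyte nuclei outside the gates (median 926) and in 0.190% of endothelial nuclei, and unthinned in 13.4% and 0.181%. The Enpp6 gate had taken nuclei rich in Enpp6 out of the first of these kinds, which lowers its share. Bcas1 was seen in 37.4% of thinned precursor nuclei and 5.33% of endothelial nuclei, and unthinned in 56.1% and 4.88%. Tnr and Lhfpl3 were also found in 31.5% and 27.0% of thinned neuronal nuclei, so a UMI of either does not mark a precursor.

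None of the 10 genes passed the test for a change with dosing in all nuclei or in the oligodendrocyte class. In all nuclei together, where fewer cells of a type and less RNA per cell cannot be told apart, 0 of 10 were called in OTV:Malat1 against ATV:BACE1 by edgeR's quasi-likelihood test with Benjamini-Hochberg adjustment over 21409 genes. Beside this, 0% of all genes were called. Malat1 was thus not called either, though its share of UMIs was 59.8% of the control average and the libraries did not overlap. A count of 0 of 10 here therefore does not show that the genes were unchanged. At an unadjusted p under 0.05 the count was 0, and DESeq2 called 0. By each of these measures the other 4 contrasts also gave 0 of 10, with 0% of genes called by edgeR. Over all genes, 0.752%, 0.901%, 1.75%, 0.766% and 0.621% were at that unadjusted p in the 5 contrasts, which are given in the order OTV:Malat1, nonTV:Malat1 and Malat1 ASO against the control, then OTV:Malat1 set against nonTV:Malat1 and, last, Malat1 ASO. DESeq2 called 0.00386%, 0%, 0.00771%, 0.00386% and 0.00771% of genes in the same order. With the replicate block they gave 0 of 10 too, when 0.0187% of genes were called in Malat1 ASO against the control and 0% in the other 4. Olig2 was at 6.30, 6.95 and 6.39 CPM in replicates 1, 4 and 5 of ATV:BACE1 and at 9.03, 7.15 and 8.63 in those of OTV:Malat1. All 3 OTV:Malat1 libraries were above the control libraries, with a log2 change of 0.29 (SE 0.141) and an adjusted p of 1.00. Pdgfra was at 14.2, 14.8 and 11.9 CPM in ATV:BACE1 and 18.9, 15.3 and 15.9 in OTV:Malat1, with a log2 change of 0.25 (SE 0.146, adjusted p 1.00). The share of all genes that separate the groups in this way was not counted. The median log2 change of the 10 genes was 0.11, against 0.0067 over all genes tested. In the oligodendrocyte class 0 of 10 were called in any of the 5 contrasts by edgeR or DESeq2. Of all genes in the class, edgeR called 0.00809% in each contrast with OTV:Malat1 and 0% in nonTV:Malat1 and Malat1 ASO against the control. At an unadjusted p under 0.05 the count there was 0, except for 1 in Malat1 ASO against the control, Sox10, with a log2 change of -0.48 (adjusted p 1.00). Of all genes in the class, 1.48%, 1.67%, 2.32%, 1.59% and 1.62% were at that unadjusted p in the 5 contrasts, in the order above, and DESeq2 called 0% in nonTV:Malat1 and Malat1 ASO against the control and 0.00438% in each of the others. With the block 0 of 10 were called in this class, when 0.0162%, 0.0243% and 0.0404% of genes were called in OTV:Malat1, nonTV:Malat1 and Malat1 ASO against the control, 0.0162% between OTV:Malat1 and nonTV:Malat1, and 0.00809% between OTV:Malat1 and Malat1 ASO.

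In cluster 5, where the precursor nuclei lay, none of the 10 genes passed the test without the replicate block. All 10 had a positive log2 change in OTV:Malat1 (median 0.27) and in Malat1 ASO (median 0.34) against the control, and 2 of 10 in nonTV:Malat1 (median -0.085), with medians of -0.00087, -0.0085 and -0.0054 over all genes. edgeR called 0.00705% of genes in each contrast with OTV:Malat1 and 0% in nonTV:Malat1 and Malat1 ASO against the control. Of the 10 it called 0 in each of the 5 contrasts, and DESeq2 called 0. At an unadjusted p under 0.05 there were 1, 0 and 2 genes in OTV:Malat1, nonTV:Malat1 and Malat1 ASO against the control, 3 between OTV:Malat1 and nonTV:Malat1, and 0 between OTV:Malat1 and Malat1 ASO. Of all genes 1.76%, 1.48%, 2.56%, 1.47% and 1.62% were at that p in the same order, and DESeq2 called 0% in nonTV:Malat1 and Malat1 ASO against the control and 0.00415% in each of the others. Genes outside the 10 were also mostly positive in OTV:Malat1: 17 of 19 further precursor genes (median 0.15), 14 of 14 differentiation genes (0.28) and 12 of 14 mature myelin genes (0.24). In Malat1 ASO the counts were 16 of 19, 13 of 14 and 13 of 14 (medians 0.23, 0.31 and 0.28), and in nonTV:Malat1 9 of 19, 8 of 14 and 5 of 14, with 0 called in each. Bcas1 was at 239, 212 and 169.5 CPM in replicates 1, 4 and 5 of ATV:BACE1 and at 342, 319 and 226 in OTV:Malat1, groups that overlap. Within each replicate number the OTV:Malat1 library was the higher. With a replicate block, edgeR called Bcas1 in OTV:Malat1 (log2 change 0.45, SE 0.0881, adjusted p 0.0451), when 0.0353% of genes were called. In Malat1 ASO the block called Bcas1 (0.55) and Vcan (0.67), each at an adjusted p of 0.0147, when 0.0705% of genes were called. In the other 3 contrasts the block called 0 of 10, with 0% of genes called in nonTV:Malat1 against the control and 0.0141% in each of the comparisons of OTV:Malat1 with the other ASO groups. The share of precursor nuclei in cluster 5 was 27.8%, 33.0% and 18.8% in replicates 1, 4 and 5 of ATV:BACE1 and 38.2%, 35.2% and 19.8% in those of OTV:Malat1. It was 28.4%, 31.2% and 20.1% in nonTV:Malat1 and, for replicates 1 and 5, 39.2% and 26.3% in Malat1 ASO. Doublet calls in that cluster ranged from 30.1% to 46.3% of nuclei in ATV:BACE1, 33.2% to 41.5% in OTV:Malat1, 22.4% to 50.4% in nonTV:Malat1 and 21.2% to 32.0% in Malat1 ASO. The part of this make-up in the changes of Bcas1 and Vcan was not tested.

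Within precursor nuclei alone the median log2 change of the 10 genes in OTV:Malat1 was -0.00097, against -0.0028 over all 8253 genes tested, and 5 of 10 were positive. The gate itself uses 5 of the 10 genes, which limits how far these can change in the nuclei it takes. edgeR and DESeq2 called 0 of 10 in each contrast, with 0% of all genes called in edgeR. At an unadjusted p under 0.05 edgeR had 0 in OTV:Malat1, 2 in nonTV:Malat1 and 0 in Malat1 ASO against the control, 1 between OTV:Malat1 and nonTV:Malat1, and 0 between OTV:Malat1 and Malat1 ASO. Of all genes 2.5%, 2.58%, 2.88%, 2.21% and 2.21% were at that p in the same order, and DESeq2 called 0% of genes in each. Of the 18 further precursor genes tested, 9 were positive in OTV:Malat1 (median 0.0018) and 0 called. Of 10 differentiation genes 3 were positive (median -0.15) and 0 called. Of 14 mature myelin genes 12 were positive (median 0.30) and 0 called, and the 5 mature markers summed to 775 to 1737 CPM in the OTV:Malat1 libraries and 792 to 1288 in the control. Precursor nuclei were 1.63% ± 0.483 (SD, n = 3) of all nuclei in ATV:BACE1, 1.70% ± 0.135 in nonTV:Malat1, 1.94% ± 0.580 in OTV:Malat1 and 1.99% ± 0.595 (SD, n = 2) in Malat1 ASO. The difference of 0.308 percentage points between OTV:Malat1 and the control was within the spread of the libraries (exact permutation test, two-sided p = 0.5). It was 0.0426 and 0.617 points without OTV:Malat1 replicate 1 and 5, and 0.559 and 0.0766 without ATV:BACE1 replicate 4 and 5. For Enpp6-gated nuclei the shares were 0.265% ± 0.0796, 0.293% ± 0.109, 0.373% ± 0.204 and 0.417% ± 0.165, and the difference of 0.108 points was also within it (p = 0.4, same exact test). It was 0.0485, 0.0496 and 0.226 points without OTV:Malat1 replicate 1, 4 and 5.

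In Enpp6-gated nuclei Tnr was lowest in nonTV:Malat1. The difference from the control was called with the replicate block and not without it. It was at 3150.5, 3332 and 4239.6 CPM in replicates 1, 4 and 5 of ATV:BACE1 and at 1860.0, 1754 and 1995 in nonTV:Malat1. In OTV:Malat1 it was at 4745, 2904 and 5379, and in replicates 1 and 5 of Malat1 ASO at 3089 and 3882. The nonTV:Malat1 libraries lay below the 8 others without overlap. How many of the 1301 genes tested separate in this way was not counted. At an unadjusted p under 0.05 in edgeR were 8.22% of them in nonTV:Malat1 against the control. The log2 change of Tnr in nonTV:Malat1 against the control was -0.99 (SE 0.251), with an adjusted p of 0.123 in edgeR and 0.181 in DESeq2. With the replicate block it was -0.95 (SE 0.203, adjusted p 0.00799), when 1.23% of 1301 genes were called. The log2 difference of OTV:Malat1 from nonTV:Malat1 was 1.16 (adjusted p 0.0559 in edgeR, 0.00727 in DESeq2), and with the block 1.11 (adjusted p 5.97e-04), when 0.922% of genes were called. Against the control, the log2 change of Tnr in OTV:Malat1 was 0.17 (adjusted p 1.00).

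Precursor nuclei, whose gate uses Tnr, were left out of both kinds of nuclei compared here. The log2 change of Tnr in nonTV:Malat1 against the control differed between Enpp6-gated and other oligodendrocyte nuclei (first minus second) by -1.23 (SE 0.282, adjusted p 0.0212 in edgeR's test of the difference), when 0.0846% of 11821 genes were called. For OTV:Malat1 against nonTV:Malat1 this difference was 1.46 (SE 0.283, adjusted p 0.00161), when 0.0592% were called. Beside it, Enpp6-gated nuclei with Tnr at 0.1% or more of UMIs other than Malat1 made up 31.7%, 31.8% and 47.6% of the Enpp6-gated nuclei in ATV:BACE1 and 15.8%, 15.4% and 23.5% in nonTV:Malat1. They made up 30.8%, 18.9% and 52.6% in OTV:Malat1, and 22.4% and 38.7% in Malat1 ASO. The control and nonTV:Malat1 shares did not overlap (exact permutation test, two-sided p = 0.1, the smallest 3 libraries against 3 allow), but they rest on 4 to 13 nuclei in each of these libraries. A further 7 genes of precursors could be tested in Enpp6-gated nuclei, and 0 of them were positive in nonTV:Malat1 (median -0.80, against 0.019 over all genes), with 0 called. Of the differentiation genes 0 of 10 were positive (median -0.74), while of the mature myelin genes 10 of 12 were positive (median 0.071), again with 0 called.

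Of the members, 7 of 10 passed the filter on low counts in Enpp6-gated nuclei, and edgeR called 0 of the 7 in any contrast. Between OTV:Malat1 and each of the other ASO groups 0.0769% of genes were called. It called 0.154%, 0.0769% and 0.0769% of genes in OTV:Malat1, nonTV:Malat1 and Malat1 ASO against the control. At an unadjusted p under 0.05 the counts were 0, 2 and 0 in these, 4 between OTV:Malat1 and nonTV:Malat1, and 0 between OTV:Malat1 and Malat1 ASO. Of all genes tested 3.07%, 8.22%, 2.46%, 7.53% and 3.23% were at that p in the same order of contrasts, with the higher shares in the 2 contrasts that involve nonTV:Malat1. DESeq2 called 1, Tnr in OTV:Malat1 against nonTV:Malat1, when 0.0186% of the 16135 genes it gave an adjusted p were called. In the other 4 contrasts DESeq2 called 0 of the 10, with 0.0124%, 0%, 0% and 0.0062% of genes called in OTV:Malat1, nonTV:Malat1 and Malat1 ASO against the control and in OTV:Malat1 against Malat1 ASO. Enpp6, which sets the gate, was at 1507, 1957 and 1707 CPM in ATV:BACE1 and 1695, 1485 and 1903 in OTV:Malat1. In edgeR without the replicate block, the 1 gene other than Malat1 called in Enpp6-gated nuclei was Trpm3, a cation channel gene that is also high in choroid plexus, at 507, 489 and 285 CPM in ATV:BACE1, 80.2, 43.3 and 0 in nonTV:Malat1, 28.4, 13.3 and 41.4 in OTV:Malat1, and 29.2 and 62.3 in Malat1 ASO. Its log2 change in OTV:Malat1 was -4.12 (SE 0.634, adjusted p 6.03e-04), in nonTV:Malat1 -3.06 (adjusted p 0.0461) and in Malat1 ASO -3.33 (adjusted p 0.0483), and the 3 control values rest on 37, 16 and 10 UMIs in 4, 6 and 2 nuclei. The 4 choroid plexus and ependyma markers summed to 581 to 1616 CPM in Enpp6-gated nuclei of the control libraries and 579 to 814 in OTV:Malat1. They summed to 909 to 1648 CPM in nonTV:Malat1 and 858 to 1017 in Malat1 ASO. Their part in the Trpm3 values was not tested.

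Malat1 in precursor nuclei was lower in OTV:Malat1 than in each other group, by less than in other oligodendrocyte nuclei. It took 5.78%, 6.23% and 6.81% of UMIs in replicates 1, 4 and 5 of ATV:BACE1, on average 6.27% ± 0.517 (SD, n = 3). In OTV:Malat1 it took 4.59%, 3.96% and 4.95%, on average 4.50% ± 0.501 (SD, n = 3), or 71.7% of the control average. The 3 OTV:Malat1 libraries lay below all 8 others. In nonTV:Malat1 the shares were 5.89%, 6.43% and 7.06% and in replicates 1 and 5 of Malat1 ASO 6.57% and 7.16%, both overlapping the control range. Within a replicate number, OTV:Malat1 stood at 79.4%, 63.5% and 72.7% of the control library. The log2 change was -0.51 (SE 0.136), and over all 8253 genes the adjusted p was 1.00 in edgeR and 1.00 in DESeq2. With the replicate block it was -0.50 (SE 0.0734, adjusted p 3.29e-04), so the call was made with the block and not without it. An exact permutation test of the library shares gave a two-sided p of 0.1, the smallest possible. Against nonTV:Malat1 the log2 change was -0.56 (adjusted p 1.00, with the block 4.19e-05), and against Malat1 ASO -0.62 (adjusted p 1.00, with the block 5.35e-05). In these 3 contrasts 0% of genes were called without the block and 0.0121% with it. For nonTV:Malat1 and Malat1 ASO against the control it was 0.049 (SE 0.136) and 0.12 (SE 0.151), each with an adjusted p of 1.00.

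The log2 change in precursor nuclei was of different size in different subsets of them. In those the annotation named neurons, Malat1 stood at 5.90% ± 0.458 of UMIs in ATV:BACE1 (SD, n = 3) and 4.66% ± 0.456 in OTV:Malat1. In those named oligodendrocytes it stood at 7.09% ± 1.19 and 3.89% ± 0.510. Without the nuclei named neurons the log2 change was -0.88 (adjusted p 4.61e-04 in edgeR), and with only those -0.37 (adjusted p 1.00). This split was added after the data had been seen, and the difference between the 2 was not tested. With a stricter gate, the 5 genes at 1% of UMIs or more, the change was -0.28 (adjusted p 1.00). Over the other nuclei of cluster 5, in which 53.3% were called doublets, it was -1.05 (adjusted p 9.70e-04), and in neurons outside the gates -0.70 (adjusted p 1.00). Without called doublets the change in precursor nuclei was -0.46. Neuron markers in precursor nuclei summed to 1179.8 to 1328 CPM in the control libraries and 972 to 1503 in OTV:Malat1, and their part in the change was not tested.

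**Figure D3:**
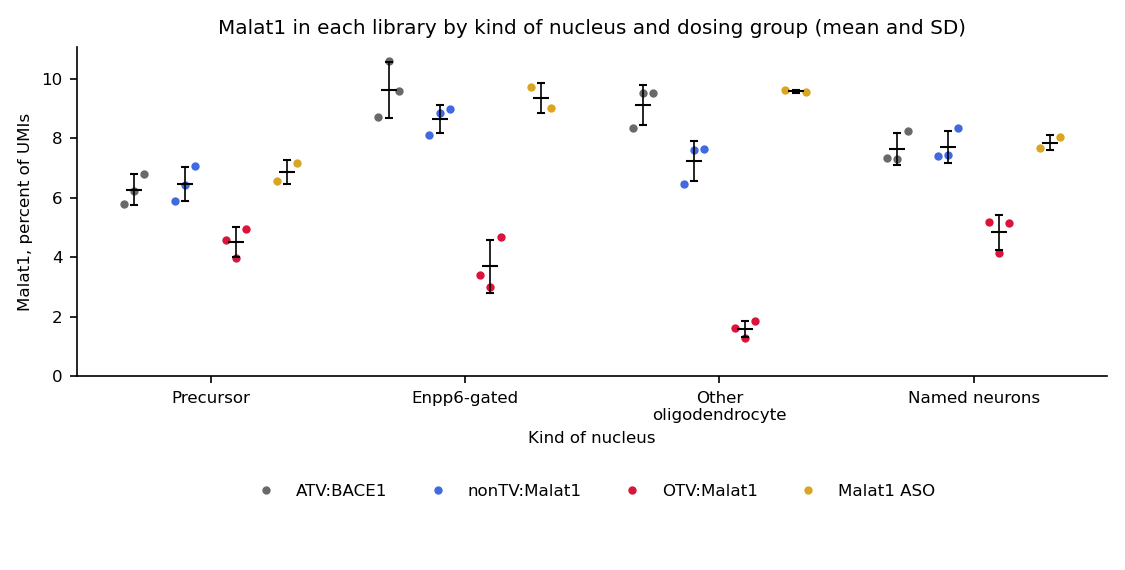
Malat1 as a percent of UMIs in each library (points), with the mean and SD of each dosing group (bars), for precursor, Enpp6-gated and other oligodendrocyte nuclei and neurons outside the gates. In OTV:Malat1 the mean is 4.50% in precursor, 3.69% in Enpp6-gated and 1.58% in other oligodendrocyte nuclei, against 6.27%, 9.63% and 9.13% in ATV:BACE1.

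Malat1 fell in OTV:Malat1 in the Enpp6-gated nuclei as a whole. Its share was 8.70%, 10.6% and 9.58% in ATV:BACE1, on average 9.63% ± 0.950 (SD, n = 3), and 3.39%, 2.99% and 4.69% in OTV:Malat1, on average 3.69% ± 0.891 (SD, n = 3) or 38.3% of the control. The groups did not overlap. These values join 2 kinds of nuclei, told apart by cluster. Whether the clustering used Malat1 is not given, so the cluster of an Enpp6-gated nucleus may depend on its Malat1. In cluster 5 the ATV:BACE1 libraries held 12, 7 and 8 such nuclei, with Malat1 at 8.33%, 11.3% and 10.7%, and the OTV:Malat1 libraries 16, 6 and 11, with Malat1 at 5.95%, 7.09% and 6.43%. The groups did not overlap (exact permutation test over libraries, two-sided p = 0.1, the smallest possible). Only 1 of the control libraries reached the 10 nuclei set for a fit, so edgeR was not run on this difference. In those of cluster 5 the means were 10.1% ± 1.56 (SD, n = 3) in ATV:BACE1 and 6.49% ± 0.573 (SD, n = 3) in OTV:Malat1, or 64.3% of the control, and in those of cluster 3 they were 9.23% ± 0.722 (SD, n = 3) and 1.30% ± 0.257 (SD, n = 3), or 14.1%, from 28, 14 and 10 nuclei in the ATV:BACE1 libraries and 36, 30 and 8 in OTV:Malat1. For all 353 the log2 change was -1.48 (SE 0.167, adjusted p 5.67e-06 in edgeR), and -1.28 and -1.46 against nonTV:Malat1 and Malat1 ASO (adjusted p 7.21e-05 and 3.28e-05). In nonTV:Malat1 the shares were 8.10%, 8.84% and 9.00%, a log2 change of -0.20 (SE 0.164, adjusted p 0.792), and in Malat1 ASO 9.72% and 9.00%, a change of -0.027 (SE 0.183, adjusted p 1.00). Where 1 UMI of Enpp6 was enough for the gate and no minimum share was set, the change in OTV:Malat1 against the control was -1.07 and no longer called (adjusted p 0.0757). That gate asked for no class, and 1759 of the 74812 neurons outside the gates had a UMI of Enpp6. Oligodendrocyte-class nuclei outside the precursor gate with 1 UMI of Enpp6 held Malat1 at 9.00% in ATV:BACE1 and 1.95% in OTV:Malat1. The part of neurons in the weaker change was not tested.

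In the other oligodendrocyte nuclei, where St18 is high and the precursor genes are low, the share was 8.35%, 9.52% and 9.51% in ATV:BACE1 and 1.61%, 1.29% and 1.84% in OTV:Malat1, means of 9.13% ± 0.670 (SD, n = 3) and 1.58% ± 0.275 (SD, n = 3). Malat1 there stood at 17.3% of the control, a log2 change of -2.65 (SE 0.198, adjusted p 6.86e-07 in edgeR, with 0.00829% of genes called). In nonTV:Malat1 the shares were 6.45%, 7.60% and 7.65%, below the 3 control libraries without overlap, but the log2 change of -0.35 (SE 0.187) had an adjusted p of 1.00, with the block 1.00.

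The changes differed between the kinds of nuclei. In a model with a term for each library, the log2 change in OTV:Malat1 against ATV:BACE1 was less negative in precursor than in other oligodendrocyte nuclei by 2.15 (SE 0.168, adjusted p 1.72e-10 in edgeR), with 0.00803% of genes called in this contrast and in those against nonTV:Malat1 and Malat1 ASO. Within a library, precursor nuclei held 0.692, 0.655 and 0.716 times the Malat1 share of other oligodendrocyte nuclei in ATV:BACE1 and 2.85, 3.06 and 2.69 times in OTV:Malat1, so the order of the 2 kinds was opposite in the 2 groups in each of the 3 replicates. Enpp6-gated nuclei differed from other oligodendrocyte nuclei by 1.27 (SE 0.229, adjusted p 1.04e-04), when 0.0254% of genes were called. Without ATV:BACE1 replicate 4 or 5 this difference was 1.23 and 1.20 and no longer called (adjusted p 0.0513 and 0.113), and with nuclei under 1000 UMIs left out it was 0.86 (adjusted p 0.772). With the gated nuclei of cluster 3 alone it was 0.12 (SE 0.268, adjusted p 1.00), in a fit of 10 libraries without OTV:Malat1 replicate 5, which had 8 such nuclei. Shares of UMIs over all libraries went the other way. In OTV:Malat1 they were 14.1% of the control in the cluster 3 nuclei and 17.3% in other oligodendrocyte nuclei, so the sign of this difference is not settled. Against Malat1 ASO, Enpp6-gated and other oligodendrocyte nuclei differed by 1.21 (adjusted p 0.0278), when 0.00846% were called. In OTV:Malat1 against the control, precursor and Enpp6-gated nuclei differed by 0.94 (SE 0.297), which was not called (adjusted p 0.874, with 0.0509% of genes called), and precursor nuclei and neurons by 0.23 (SE 0.214, adjusted p 1.00, with 0.02% called).

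Among Enpp6-gated nuclei, Malat1 in OTV:Malat1 went with Tnr. With Tnr at 0.1% or more of UMIs other than Malat1 there were 100 nuclei, 87 of them in cluster 5, and below it 253, of which 243 were in cluster 3. In the first kind Malat1 took 8.05%, 10.8% and 9.84% of UMIs in ATV:BACE1 and 5.95%, 6.87% and 6.98% in OTV:Malat1, means of 9.55% ± 1.38 (SD, n = 3) and 6.60% ± 0.565 (SD, n = 3), or 69.1% of the control. In the second it took 9.11%, 10.5% and 9.16% and 1.21%, 1.10% and 1.63%, means of 9.58% ± 0.776 (SD, n = 3) and 1.31% ± 0.282 (SD, n = 3), or 13.7% of the control. The first kind had the value nearer to that of precursor nuclei, and the second that of other oligodendrocyte nuclei. The log2 ratio of the first to the second was 2.30, 2.64 and 2.10 in OTV:Malat1 and -0.18, 0.041 and 0.10 in ATV:BACE1, and in nonTV:Malat1 and Malat1 ASO it was between -0.18 and 0.057. The OTV:Malat1 and control ratios did not overlap (exact permutation test, two-sided p = 0.1, the smallest possible). Nuclei with high Tnr numbered 13, 7 and 10 in the ATV:BACE1 libraries and 16, 7 and 10 in OTV:Malat1, and the split was made after the data had been seen. Restricted to Enpp6-gated nuclei of cluster 3, the log2 change in OTV:Malat1 was -3.08, again from 10 libraries without OTV:Malat1 replicate 5.

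Malat1 in the oligodendrocyte class of OTV:Malat1, outside the precursor gate, was also set beside the number of Enpp6 molecules. In OTV:Malat1, nuclei with 0, 1, 2 and 3 or more UMIs of Enpp6 held Malat1 at 1.38% ± 0.313, 1.95% ± 0.593, 3.30% ± 1.20 and 4.81% ± 0.728 (SD, n = 3). In ATV:BACE1 the same nuclei held 9.16% ± 0.703, 9.00% ± 0.405, 9.12% ± 1.07 and 9.54% ± 1.48, values closer to each other than the sum of their SDs. In OTV:Malat1 the means were higher with each step, with neighbouring means closer than the sum of their SDs and those of 0 and 3 or more UMIs further apart. Each cluster was also taken alone. In cluster 3 the OTV:Malat1 means were 0.975% ± 0.0683, 1.24% ± 0.203, 1.28% ± 0.179 and 2.58% ± 2.01 in the same order, and the last rests on 44 nuclei, from 2 upward in a library. In cluster 5 they were 4.94% ± 0.603, 7.30% ± 4.67, 8.82% ± 1.21 and 6.54% ± 0.967, with 66, 19, 16 and 28 nuclei, and so had no steady order. The cluster 5 nuclei were 66 of 3258 with 0 UMIs of Enpp6 and 28 of 76 with 3 or more. The split by cluster was added after the data had been seen, and the cluster of a nucleus may depend on its Malat1. Over the whole class outside the precursor gate, the nonTV:Malat1 means were 6.91% ± 0.744 with 0 UMIs and 9.15% ± 0.705 with 3 or more. Deeper nuclei have more Enpp6 UMIs, and the median depth of the OTV:Malat1 nuclei was 894 UMIs with 0 and 2056 with 3 or more. The part of depth and of cluster in this order was not tested.

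**Figure D4:**
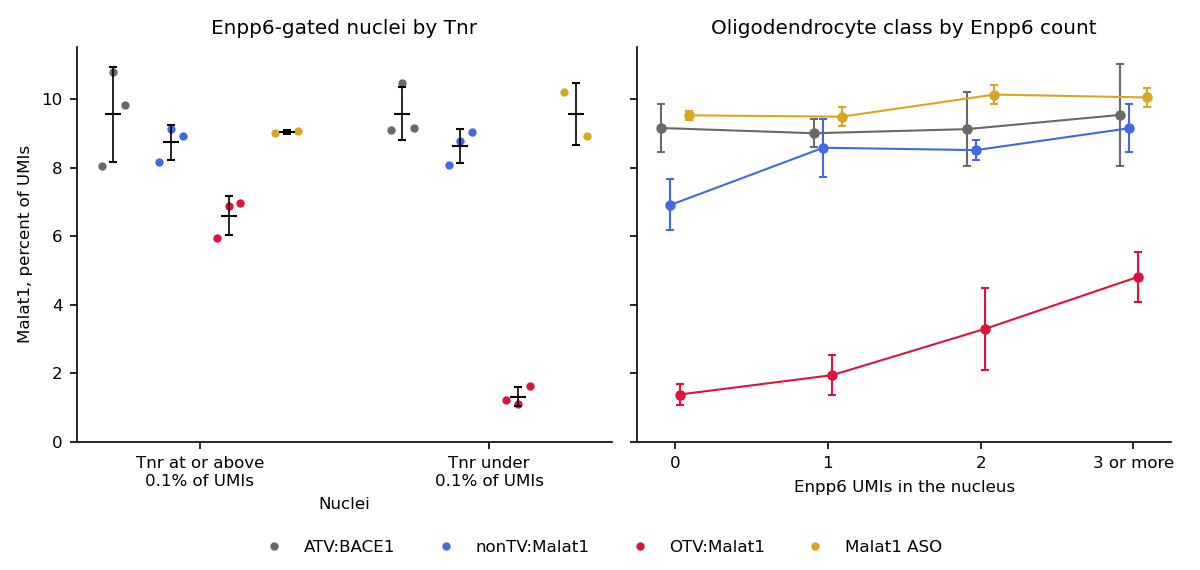
Left, Malat1 as a percent of UMIs in each library (points, with group mean and SD) for Enpp6-gated nuclei with Tnr at or above, or under, 0.1% of UMIs other than Malat1. Right, group mean and SD of the same percent in oligodendrocyte-class nuclei outside the precursor gate by their number of Enpp6 UMIs. In OTV:Malat1 the mean is 6.60% with high Tnr and 1.31% with low Tnr, against 9.55% and 9.58% in ATV:BACE1.

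Oligodendrocyte-class nuclei were also divided by whether they held a UMI of each gene, which by itself does not mark a stage. The class holds 401 precursor nuclei of the gate above, and of its nuclei with a UMI these made up 346 of 468 for Pdgfra, 280 of 551 for Vcan, 204 of 590 for Cspg4, 400 of 1248 for Lhfpl3 and 400 of 1253 for Tnr. A UMI of Pdgfra was seen in 3.27% of the class (median depth 947 UMIs) and 0.814% of vascular endothelial nuclei (median 960.5), of Vcan in 3.85% and 0.633%, of Cspg4 in 4.12% and 1.45%, of Lhfpl3 in 8.71% and 2.44%, and of Tnr in 8.75% and 3.98%. By the group means, nuclei with a UMI of any of these 5 held more Malat1 in OTV:Malat1 than those without it. With Pdgfra the share was 3.81% ± 0.575 (SD, n = 3), or 50.5% of the control nuclei with Pdgfra, and without it 1.67% ± 0.254, or 18.3%. With Vcan it was 4.13% ± 0.924 (54.2% of control), with Cspg4 2.79% ± 0.354 (34.5%), with Lhfpl3 3.58% ± 0.982 (44.7%) and with Tnr 4.60% ± 0.997 (56.0%). The genes of later or all stages gave lower shares of control: 30.6% with Enpp6, 28.8% with Sox10, 29.2% with Olig2 and 23.2% with Bcas1. St18 went the other way, with 18.9% in nuclei that carried it and 31.7% in those that did not. In nonTV:Malat1 and Malat1 ASO the nuclei with each gene held from 80.0% to 110.5% of the control. Nuclei with a UMI of a gene were deeper: in OTV:Malat1 the median was 1639 UMIs with Tnr and 920 without. Without the gated precursor nuclei, a choice added after the data had been seen, nuclei with the gene stood at 56.8% of the control for Tnr, 54.5% for Vcan, 39.5% for Lhfpl3 and 36.2% for Pdgfra, and those without it at 13.3%, 16.9%, 16.0% and 18.1%. The value for Pdgfra rests on 29 nuclei of OTV:Malat1. For Cspg4 the order turned, with 16.1% in nuclei that carried it and 18.3% in the others, and for St18 as well (18.3% and 17.9%). Enpp6, Bcas1, Sox10 and Olig2 kept theirs, at 30.1%, 21.4%, 26.9% and 26.8% with the gene and 15.1%, 13.0%, 14.4% and 17.5% without it. These divisions overlap in their nuclei, and no difference among them was tested.

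**Figure D5:**
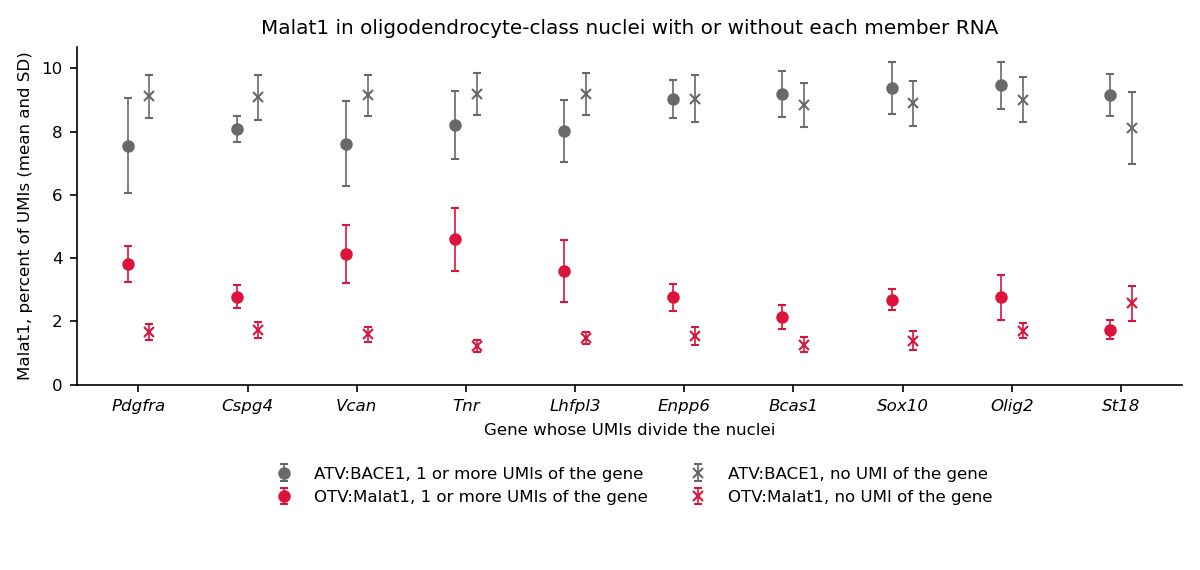
Malat1 as a percent of UMIs (mean and SD, n = 3 libraries) in oligodendrocyte-class nuclei, gated precursors included, with at least 1 UMI (circles) or no UMI (crosses) of each gene on the horizontal axis, in ATV:BACE1 and OTV:Malat1. In OTV:Malat1 the circles lie above the crosses for 9 of the 10 genes and below for St18.

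Over all nuclei, most of which are neurons, these divisions did not keep one direction. Nuclei with Pdgfra held Malat1 at 7.92% ± 0.907 in ATV:BACE1 and 4.88% ± 0.520 in OTV:Malat1 (61.6% of control), and those without it 7.79% ± 0.502 and 4.65% ± 0.572 (59.8%). For Enpp6, Bcas1, Sox10 and Olig2 the order by percent of control was opposite to that in the oligodendrocyte class: nuclei with the gene stood at 50.2%, 51.0%, 50.5% and 55.4% and those without it at 60.3%, 61.5%, 60.6% and 60.0%. Vcan, Tnr and Lhfpl3 kept the order of the class, with 65.4%, 62.3% and 63.8% in nuclei that carried the gene and 59.4%, 53.3% and 55.0% in those that did not. For Cspg4 the values were 59.2% and 59.9%. St18 kept its order, with 49.9% and 62.9%. Within cluster 5, nuclei with Pdgfra stood at 64.8% of the control and those without it at 52.2%.

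Single nuclei were compared at 1000 UMIs. The median Malat1 count of precursor nuclei was 57 in ATV:BACE1, 60 in nonTV:Malat1, 46 in OTV:Malat1 and 63 in Malat1 ASO. In Enpp6-gated nuclei the medians were 91.5, 81, 16 and 88, and in other oligodendrocyte nuclei 86, 67, 8 and 91. The middle 90% of Enpp6-gated nuclei in OTV:Malat1 ran from 3.75 to 94.75 UMIs, against 50.25 to 138.5 in ATV:BACE1, and that of precursor nuclei from 21 to 74, against 35.95 to 96.1. A nucleus was counted as low in Malat1 at or under the mean of the 5th percentiles of the 3 control libraries for its kind (36.4, 53.7 and 55.3 UMIs in precursor, Enpp6-gated and other oligodendrocyte nuclei). Low nuclei made up 5.90% ± 3.35 (SD, n = 3) of precursor nuclei in ATV:BACE1 and 29.1% ± 6.62 (SD, n = 3) in OTV:Malat1. They made up 8.15% ± 7.14 (SD, n = 3) and 77.8% ± 17.3 (SD, n = 3) of Enpp6-gated nuclei, and 6.16% ± 3.72 (SD, n = 3) and 93.4% ± 7.24 (SD, n = 3) of other oligodendrocyte nuclei. In each kind the OTV:Malat1 libraries lay above the control libraries (exact permutation test, two-sided p = 0.1, the smallest possible). The cut was set from the control libraries, so their shares are held low by it and the exact tests of low nuclei are not independent of it. In nonTV:Malat1 low nuclei were 5.29% ± 0.905 (SD, n = 3) of precursor nuclei (p = 0.8, same exact test) and 30.7% ± 7.97 (SD, n = 3) of other oligodendrocyte nuclei (p = 0.1). Thinning left out nuclei under 1000 UMIs: 13.4% of precursor, 21.4% of Enpp6-gated and 62.5% of other oligodendrocyte nuclei in ATV:BACE1, and 10.9%, 11.1% and 57.4% in OTV:Malat1.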

How the data were processed

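Nuclear RNA of 11 mouse brain libraries was counted in single nuclei. Deposited values are raw UMI counts by gene and nucleus, whole numbers that are not normalized. For each nucleus the deposited metadata add a class, a cluster, a doublet call, the prediction score of the class (a fraction from 0 to 1) and the percent of mitochondrial UMIs as computed by the authors, which was not used. The authors used Cell Ranger 5.0.0 and Seurat 4 with mm10, per the submitters' processing notes; how nuclei were filtered, and whether clustering used Malat1, is not given in the sources used here. Column sums equalled the deposited totals in 110304 nuclei.

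Counts were summed per library and kind of nucleus (at least 10 gated nuclei, or 20 otherwise, for a fit; Malat1 percents of smaller subsets keep every library). Sums were tested with edgeR 4.0.16 (quasi-likelihood, TMM, filterByExpr, all 4 groups in 1 fit) in R 4.3.3 with Benjamini-Hochberg adjustment over all genes of a fit at 0.05, and checked on simulated data. DESeq2 1.42.0, no TMM, no filter, other gates and depths and each library left out were alternatives. Subsets by class name, by cluster and by Tnr level, and Malat1 left out of library sizes, were alternatives chosen after seeing the data. Differences between kinds used a model with a term for each library. CPM and the Malat1 percents include Malat1 in the UMI total, while the percents that set the gates and the Tnr split leave it out. Shares were compared by exact permutation, and called doublets were kept, with leaving them out as an alternative. Other steps ran in Python 3.11.15 (scipy 1.17.1, numpy 2.4.6, pandas 2.3.3), with plots by matplotlib 3.10.9.

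Replicate numbers coincide with the deposited batch. Same-numbered libraries of different groups correlated at r 0.601 to 0.889 (15 pairs, 7617 genes, centred within groups) and others at -0.859 to 0.456 (30 pairs), so numbers were taken to pair libraries and blocked values are given where a call changes. The main fits within a kind of nucleus had no term for this pairing. Their SE values therefore also hold the spread between replicate numbers, and a gene not called in them may be called with the block. The members, gates and gene lists were chosen with earlier results of these data known. The text names the 10 genes, Malat1, list genes highest in a kind, the 5 most similar profiles, and genes called in gated nuclei. Of the 15 differentiation genes listed, Tmem2 was not measured under that symbol.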

Additional observations from a re-analysis of the deposited data

Results flagged for a closer look

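Malat1 changed differently in the kinds of nuclei within the same comparison. Against ATV:BACE1, the log2 change in OTV:Malat1 was higher (less negative) in precursor than in other oligodendrocyte nuclei by 2.15 (SE 0.168, adjusted p 1.72e-10 in edgeR), against nonTV:Malat1 by 1.73 (SE 0.167, adjusted p 5.89e-08), and against Malat1 ASO by 2.07 (SE 0.188, adjusted p 1.04e-08). In Enpp6-gated nuclei it was higher than in other oligodendrocyte nuclei by 1.27 (SE 0.229, adjusted p 1.04e-04), 1.10 (SE 0.229, adjusted p 0.00678) and 1.21 (SE 0.256, adjusted p 0.0278) in the same 3 comparisons, which share the OTV:Malat1 libraries. The first of these was no longer called without ATV:BACE1 replicate 4 (1.23, adjusted p 0.0513) or 5 (1.20, adjusted p 0.113) or without nuclei under 1000 UMIs (0.86, adjusted p 0.772). With the gated nuclei of cluster 3 alone the 3 values were 0.12, -0.30 and -0.15 (adjusted p 1.00, 0.970 and 1.00), from 10 libraries, since OTV:Malat1 replicate 5 had 8 such nuclei. The sign of the first is opposite to that of the shares of UMIs given above. Tnr was the only member for which such a difference was called, between kinds that leave out precursor nuclei by a gate that uses Tnr. Its change in Enpp6-gated nuclei differed from that in other oligodendrocyte nuclei by -1.23 (SE 0.282, adjusted p 0.0212) in nonTV:Malat1 against ATV:BACE1 and by 1.46 (SE 0.283, adjusted p 0.00161) in OTV:Malat1 against nonTV:Malat1, which share the nonTV:Malat1 libraries. What sets these differences was not tested.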

How the results depend on the processing

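Over 35 results and 671 alternatives, 643 kept their direction and side of the threshold (or stayed within 1.5 times for a count). Of the rest, 8 gained a call, 7 lost one, 11 changed sign and 2 counts moved. The 643 include counts of members called, which were 0 in each main fit and had little room to move. They also include shares of nuclei compared by exact permutation. The smallest p possible there lies above the threshold, so these could change only in direction. The 643 therefore do not measure how stable the Malat1 changes are. Malat1 in precursor nuclei gained a call with the replicate block, at -0.50, -0.55 and -0.62 (OTV:Malat1 against the control, nonTV:Malat1 and Malat1 ASO in turn), and without nuclei named neurons, at -0.88, -0.85 and -0.85. It also gained one with Sox10 or Olig2 required, at -0.62 against nonTV:Malat1, and with the 5 genes at 1% or more, at -0.46 against Malat1 ASO. With 1 UMI of Enpp6 and no minimum share as the gate the Enpp6-gated change lost its call at -1.07, -1.07 and -1.18. That gate asked for no class, so deeper nuclei of other kinds, such as neurons, could enter it. The difference between Enpp6-gated and other oligodendrocyte nuclei lost its call at 0.86 without nuclei under 1000 UMIs and at 0.12 with cluster 3 alone (10 libraries, without OTV:Malat1 replicate 5), and with 1 library left out it ranged from 1.20 to 1.38. The block moved the members called in cluster 5 to 1 (OTV:Malat1) and 2 (Malat1 ASO) against the control; it changed no other of the counts of members in all nuclei, the oligodendrocyte class and cluster 5. Sign changes were seen for changes near 0 that were not called: in precursor nuclei nonTV:Malat1 was at -0.0070 with no minimum share and -0.034 without nuclei named neurons (-0.025 to 0.12 with 1 library left out), and Malat1 ASO at -0.028 without the latter. In Enpp6-gated nuclei Malat1 ASO was at 0.11 with 1 UMI of Enpp6 and no minimum share, 0.12 in cluster 3 and 0.076 without the filter (-0.14 to 0.0080 with 1 library left out), and in other oligodendrocyte nuclei it ran from -0.0040 to 0.16. With 1 library left out, the OTV:Malat1 change against the control ran from -0.59 to -0.45 in precursor, -1.73 to -1.32 in Enpp6-gated and -2.73 to -2.54 in other oligodendrocyte nuclei. With cluster 5 alone, only 1 control library, with 12 Enpp6-gated nuclei, reached the minimum of 10, so no value against the control could be fitted. The cause of these shifts was not tested. Other oligodendrocyte nuclei were the shallower, with a median of 926 UMIs and 57.4% under 1000, against 1595 UMIs and 13.9% in Enpp6-gated nuclei, of which a library held 17 to 52.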
